A study of Mus musculus with 12 samples.

Results

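Collagen chain genes were taken as every gene whose array probes carry a name of the form Col, a type number, the letter a and a chain number. This rule used no measured value. It found 43 of the 34797 gene names on the array, on 68 of 55681 probes. Of these genes, 11 encode fibrillar chains, 6 encode the type IV chains of basement membranes and 26 encode other chains. A probe counted as measurable where each array of 1 group or more carried the scanner software's mark for signal well above background, and 35 of the 43 genes had such a probe (9 fibrillar, 6 type IV and 20 other). All counts below are out of these 35 genes, which had to be bright enough in at least 1 group.

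RNA came from the aortas of male mice, on 12 arrays with 3 in each of 4 groups. The strain background was 129S5/SvEvBrd, C57BL6 and SJL, all mice carried the floxed alleles Socs3fl/fl, and the floxed line had been backcrossed to C57BL/6J for 3 generations. WT mice lacked Cre, whereas mice labelled smSocs3-KO also carried SM22-Cre, which is driven by a smooth muscle promoter, so that other cells of the aortic wall are not its target. No WT group carried Cre alone. The challenge was β-aminopropionitrile (BAPN) at 150 mg/kg/day, an inhibitor of the lysyl oxidases that crosslink collagen and elastin, given with angiotensin II (AngII) at 1000 ng/kg/min by minipump, and tissue was taken before it (day 0) or at day 3. The study's methods give an age of 11 to 14 weeks for its male mice and a 10 mm length of aorta for RNA. Nothing in the labels says that arrays of a group were separate animals, so p-values measure the spread between these arrays.

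Collagens are trimers in which 3 chains wind into a helix, and glycine recurs in each triplet of residues because no other side chain fits at its centre. Fibrillar collagens bear the tension of the aortic wall, type IV collagen forms the sheet under endothelium and around each smooth muscle cell, and the remaining types decorate fibrils, form other networks, or sit in membranes. Chains are modified and folded in the endoplasmic reticulum, trimmed outside the cell and crosslinked by lysyl oxidases.

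The glycine rhythm could be read in the array itself. Of the 68 collagen probes, 2 had a glycine codon (GG followed by any base) at every 3 codons of a reading frame, and 1 of these was measurable. It is the probe that stands for Col15a1 in the values below, it lies in the part of the gene that encodes the helix (chr4:47283786-47283845 on mm9, plus strand), and the capitals mark its 6 glycine codons:
Col15a1 probe: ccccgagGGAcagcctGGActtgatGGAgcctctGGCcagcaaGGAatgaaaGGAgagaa

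Promoter sequences were available from RefSeq (GRCm38.p6) for 35 of the 43 genes, in 38 windows of the 250 bases before an annotated start. The 6 windows below belong to chains that rose after challenge or were higher in the labelled smSocs3-KO group, and are shown so that these chains can be set side by side. They do not cover all such chains. Col12a1 had no window, and that of Col6a3, which held none of the motifs searched for, is not shown. Capitals mark matches on either strand to 5 short motifs that were searched for, namely the TATA box TATAAA, the box named CCAAT, the GC box GGGCGG, the AP-1 form TGANTCA and the form TTCNNNGAA, the last being bound by STAT factors, the factors whose activation Socs3 restrains.
Col3a1 (chr1:45311288-45311537, plus strand): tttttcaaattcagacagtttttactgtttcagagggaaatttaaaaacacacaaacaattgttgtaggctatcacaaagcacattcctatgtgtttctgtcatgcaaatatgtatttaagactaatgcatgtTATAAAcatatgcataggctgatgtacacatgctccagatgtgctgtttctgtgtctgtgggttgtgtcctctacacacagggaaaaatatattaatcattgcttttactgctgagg
Col5a1 (chr2:27886175-27886424, plus strand): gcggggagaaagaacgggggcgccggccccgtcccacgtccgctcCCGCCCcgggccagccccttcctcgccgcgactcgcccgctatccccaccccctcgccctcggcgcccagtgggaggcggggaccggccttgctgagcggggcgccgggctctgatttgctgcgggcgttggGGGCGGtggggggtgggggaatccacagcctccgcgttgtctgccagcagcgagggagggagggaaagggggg
Col11a1 (chr3:114030290-114030539, plus strand): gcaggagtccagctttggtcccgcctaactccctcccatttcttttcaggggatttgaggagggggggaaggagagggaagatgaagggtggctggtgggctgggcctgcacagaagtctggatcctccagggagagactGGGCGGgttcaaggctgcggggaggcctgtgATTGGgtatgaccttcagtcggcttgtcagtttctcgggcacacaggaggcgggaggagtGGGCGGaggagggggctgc
Col8a1 (chr16:57754738-57754987, minus strand): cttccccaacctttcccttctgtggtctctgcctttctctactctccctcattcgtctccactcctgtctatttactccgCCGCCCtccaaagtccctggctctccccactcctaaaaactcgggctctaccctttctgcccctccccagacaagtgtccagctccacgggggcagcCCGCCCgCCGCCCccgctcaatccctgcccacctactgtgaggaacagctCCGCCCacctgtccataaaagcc
Col28a1 (chr6:8192618-8192867, minus strand): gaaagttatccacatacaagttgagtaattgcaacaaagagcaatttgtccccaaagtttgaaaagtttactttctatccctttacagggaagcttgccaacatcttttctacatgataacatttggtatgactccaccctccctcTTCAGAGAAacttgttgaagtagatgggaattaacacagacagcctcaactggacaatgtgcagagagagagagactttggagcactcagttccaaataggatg
Col6a5 (chr9:105960644-105960893, minus strand): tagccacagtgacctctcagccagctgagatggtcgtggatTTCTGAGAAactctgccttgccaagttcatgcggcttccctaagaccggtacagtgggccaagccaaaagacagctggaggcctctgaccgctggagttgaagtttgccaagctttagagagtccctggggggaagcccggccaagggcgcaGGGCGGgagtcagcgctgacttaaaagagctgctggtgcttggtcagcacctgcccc
The motif GGGCGG was in 22 of the 38 collagen windows (57.9%), against 32.7% of all 32851 windows of this length. CCAAT was in 13 (34.2%, against 33.8%), TATAAA in 5 (13.2%, against 12.4%) and TGANTCA in 1 (2.63%, against 6.75%), that of Col6a1. TTCNNNGAA was in 2 windows (5.26%, against 7.02%), those of Col28a1, 104 bases before the start, and Col6a5, 209 bases before it. These 2 genes were also the collagen chains called higher in the labelled smSocs3-KO group at day 3. That overlap was noticed after the values were seen, with motifs chosen when earlier results were known. It is no test of a link to Socs3, which was not tested. A match describes letters and says nothing of a factor's binding.

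Values are log2 signals relative to the 75th percentile of their array, so 0 is that percentile, and differences between groups are in log2 units with their standard error (SE). A difference is called where limma's Benjamini-Hochberg adjusted p, over all 22761 genes tested, is under 0.05. Slide 1 held all 6 WT arrays and replicate 1 of labelled smSocs3-KO before challenge, and slide 2 held the 5 remaining labelled smSocs3-KO arrays. At day 3, genotype and slide therefore cannot be told apart, whereas the WT response lies within slide 1. In fits with slide as a block, the slide effect comes only from the labelled smSocs3-KO arrays before challenge. Genotype differences from those fits thus rest on the single such array of slide 1. The challenge responses of those fits equal those with that array left out. The Socs3 signal was not lower under the smSocs3-KO label: it was 0.30 to 0.75 in WT and 0.24 to 1.46 in labelled smSocs3-KO before challenge, and 0.64 to 2.30 against 2.28 to 4.13 at day 3. Replicate 4 of the WT day 3 group stood apart from the other two, with a mean of 7 proliferation genes 2.49 above the WT mean before challenge where they had 5.30 and 5.28. In bulk tissue, fewer cells of a type and less RNA per cell cannot be told apart.

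After challenge, 5 collagen genes rose in WT aorta and none fell (0; 2 were lower at an unadjusted p under 0.05). They were Col3a1, Col5a1 and Col11a1 among the fibrillar chains and Col6a3 and Col8a1 among the others. Of all genes tested, 3.59% rose and 1.09% fell in this comparison. In labelled smSocs3-KO aorta, 2 collagen genes rose, Col12a1 and Col28a1, and none fell (0; 5 were lower at an unadjusted p under 0.05), against 1.71% and 0.734% of all genes. Col28a1 and Col11a1 passed the brightness filter only through the labelled smSocs3-KO day 3 group. The Col28a1 call is therefore not independent of that filter. For Col11a1, called in WT, the filter drew on a day 3 group of the other genotype. No collagen gene was called for a difference between the 2 genotypes' responses (0 by the interaction, against 0% of all genes; 4 at an unadjusted p under 0.05).

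The counts in WT depended on single arrays. Without replicate 4 of WT day 3, 9 collagen genes were called in WT (8 higher and 1 lower) and 5 in labelled smSocs3-KO. Of all 22761 genes, 2268 were then higher and 1360 lower in WT, and 1265 and 653 in labelled smSocs3-KO. Without any 1 of the other 5 WT arrays 0 collagen genes were called in WT, and at most 2 of all genes higher and 1 lower. Leaving out replicate 4 of labelled smSocs3-KO before challenge or replicate 3 of its day 3 group also gave 0 collagen calls in WT. Of all genes, 1 higher and 2 lower were called in the former case, and 421 and 126 in the latter. The arrays of the 2 groups did not overlap for 12 higher and 2 lower collagen genes in WT (20.7% and 14.6% of all genes) and for 10 higher and 3 lower in labelled smSocs3-KO (14.1% and 14%).

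Taking both genotypes together gave more calls. The mean of both challenge responses, a contrast added after the data were seen, was positive and called for 10 collagen genes and negative and called for 1, against 13.6% and 9.18% of all genes. The 10 were Col1a1, Col3a1, Col5a1, Col5a2, Col11a1, Col4a2, Col6a3, Col8a1, Col12a1 and Col28a1, and the 1 was Col23a1. Col11a1 and Col28a1 passed the brightness filter only through the labelled smSocs3-KO day 3 group, which is part of this contrast. With slide as a block, 9 of these 11 were called (all but Col5a2 and Col4a2). For this contrast that fit equals leaving out replicate 1 of labelled smSocs3-KO before challenge.

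**Figure D1:**
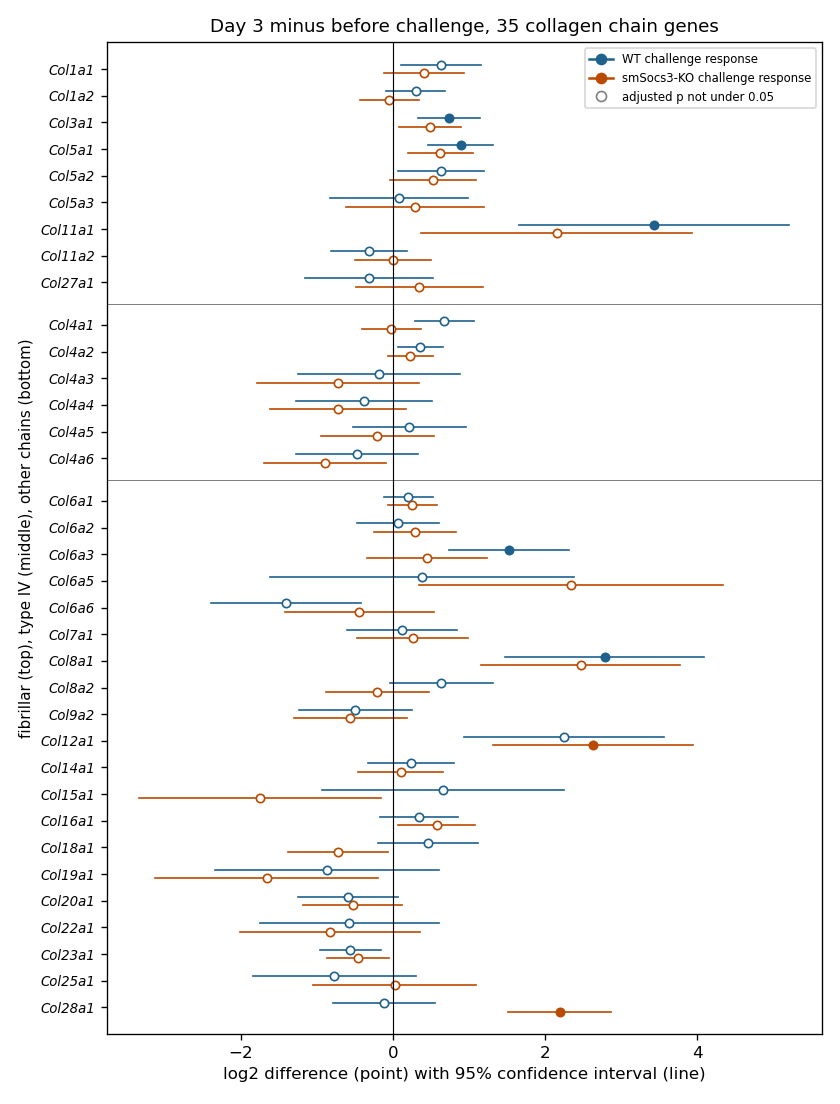
Challenge responses of the 35 measurable collagen genes. The x axis is the log2 difference between day 3 and before challenge, points are estimates (filled where the adjusted p is under 0.05), lines are 95% confidence intervals, blue is WT and brown is labelled smSocs3-KO. Col8a1 (2.78 in WT) and Col12a1 (2.63 in labelled smSocs3-KO) lie far to the right of 0. The points of Col11a1 in both genotypes, and of Col28a1 and Col19a1, are fitted against a group not well above background and their size is not a measured fold.

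The fibrillar chains as a class had a median response of 0.63 in WT and 0.41 in labelled smSocs3-KO, where the median over all genes was -0.02 and -0.06. Col3a1 encodes the chain of type III collagen, which mixes with type I in the fibrils of elastic arteries. Its signals were 7.50, 7.57 and 7.60 in WT before challenge and 8.42, 8.40 and 8.06 at day 3. In labelled smSocs3-KO they were 7.97, 7.62 and 7.40 before challenge and 8.32, 8.18 and 7.96 at day 3. The WT groups did not overlap, and the lowest labelled smSocs3-KO array at day 3 lay just below the highest before challenge. The difference was 0.74 ± 0.18 in WT (1.67-fold, adjusted p = 0.0476) and 0.49 ± 0.18 in labelled smSocs3-KO (adjusted p = 0.15), and the mean response was 0.61 ± 0.13 (adjusted p = 0.0113).

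Col1a1 and Col1a2 encode the chains of type I collagen, the main tensile collagen of the adventitia and media. Col1a1 was at 7.06, 7.01 and 7.02 in WT before challenge and at 7.73, 7.98 and 7.27 at day 3, so that the groups did not overlap, but the difference of 0.63 ± 0.24 was not called (adjusted p = 0.126). With the smSocs3-KO label it was at 7.28, 6.55 and 6.54 before challenge and at 7.42, 7.12 and 7.05 at day 3. The array at 7.28 was the one on slide 1. Within slide 2 the Col1a1 response was 0.65, against 0.41 ± 0.24 over all arrays of that genotype (adjusted p = 0.315). The mean Col1a1 response was 0.52 ± 0.17, 1.43-fold (adjusted p = 0.0482). Col1a2 was at 9.06 to 9.16 in WT before challenge and 9.27 to 9.57 at day 3, with a response of 0.30 ± 0.18 in WT and -0.05 ± 0.18 in labelled smSocs3-KO (adjusted p = 0.293 and 0.886).

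Type V collagen starts the assembly of type I and III fibrils and sets their width. Col5a1 was at 4.18, 4.17 and 4.22 in WT before challenge and at 5.30, 5.29 and 4.65 at day 3. Labelled smSocs3-KO arrays read 4.04, 4.13 and 4.12 before challenge and at 4.97, 4.60 and 4.59 at day 3. The 6 arrays before challenge spanned less than 0.2 and all 6 at day 3 lay above them. The response was 0.89 ± 0.19 in WT (1.86-fold, adjusted p = 0.0363), 0.62 ± 0.19 in labelled smSocs3-KO (adjusted p = 0.0983) and 0.76 ± 0.14 over both (adjusted p = 0.00749). Col5a2 showed 0.63 ± 0.26 in WT and 0.52 ± 0.26 in labelled smSocs3-KO, neither called, and a called mean response (0.58 ± 0.18, adjusted p = 0.0433). Col5a3 showed 0.08 and 0.29.

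Col11a1 encodes a chain of type XI collagen, the cartilage relative of type V. Its probe was well above background on 5 arrays: replicates 1 and 3 of WT day 3, at -1.21 and -2.02, and the 3 labelled smSocs3-KO arrays at day 3, at -3.29, -2.04 and -3.37. Replicate 4 of WT day 3 read -5.15, and the arrays before challenge read -6.55 to -5.69 in WT and -5.25 to -4.92 in labelled smSocs3-KO. Where a probe is not well above background on any array of a group, only a bound on the fold can be given. It sets the mean of the brighter group against, on each dimmer array, the lowest signal of any probe well above background or the probe's own, whichever is higher. By this bound Col11a1 was at least 2.92-fold higher at day 3 in WT (means -2.80 and -6.23, 2 of the 3 day 3 arrays well above background, adjusted p = 0.0416) and at least 3.03-fold higher in labelled smSocs3-KO (means -2.90 and -5.05, adjusted p = 0.149). The WT bound was 6.61-fold without replicate 4, 1.68-fold without replicate 1 and 2.24-fold without replicate 3. The Col11a1 probe passed the brightness filter only through the labelled smSocs3-KO day 3 group, so the filter favoured a higher day 3 value there. The other fibrillar chains, Col11a2 and Col27a1, had responses between -0.32 and 0.35, none called.

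**Figure D2:**
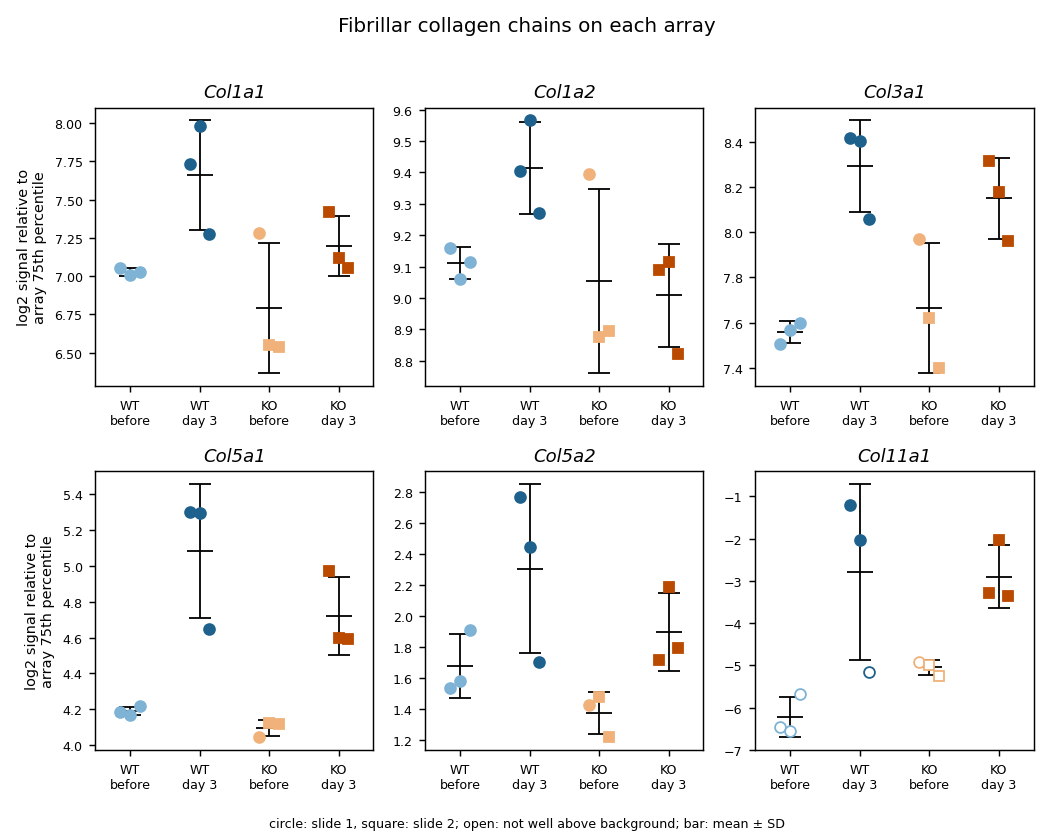
Signals of 6 fibrillar chains on each array. The y axis is the log2 signal relative to the array's 75th percentile, each point is an array (circles slide 1, squares slide 2, open where not well above background) and bars give the mean ± SD of 3 arrays. Col5a1 is higher at day 3 on all 6 arrays than on any array before challenge (4.59 to 5.30 against 4.04 to 4.22), and replicate 4 of WT day 3 is the lowest of its group for all 6 chains.

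Among the other chains, Col8a1 encodes the main chain of type VIII collagen, a short-chain network collagen made by endothelial and smooth muscle cells of injured arteries. It was at -2.14, -1.47 and -2.35 in WT before challenge and at 1.96, 1.38 and -0.96 at day 3. On labelled smSocs3-KO arrays it read -1.43, -1.41 and -1.82 before challenge and at 1.12, 0.98 and 0.64 at day 3. No array at day 3 reached down to the range before challenge in either genotype. The response was 2.78 ± 0.59 in WT (6.88-fold, adjusted p = 0.0353) and 2.47 ± 0.59 in labelled smSocs3-KO (5.53-fold, adjusted p = 0.0562). Without replicate 4 of WT day 3 the WT value was 3.66. Its partner chain Col8a2 showed 0.64 ± 0.31 and -0.21 ± 0.31, neither called.

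Col12a1 encodes the chain of type XII collagen, which lies on the surface of type I fibrils. It was at -1.20, -1.08 and -1.33 in WT before challenge and at 2.19, 1.74 and -0.81 at day 3. The labelled smSocs3-KO arrays gave -1.11, -1.35 and -1.62 before challenge and at 1.13, 1.18 and 1.5 at day 3. The groups did not overlap in either genotype, and the labelled smSocs3-KO arrays at day 3 lay within 0.4 of each other. The response was 2.63 ± 0.59 in labelled smSocs3-KO (6.20-fold, adjusted p = 0.0476) and 2.24 ± 0.59 in WT (adjusted p = 0.0551). Without replicate 4 of WT day 3 the WT value was 3.17, and within slide 2 the labelled smSocs3-KO value was 2.76. The labelled smSocs3-KO call of Col12a1 was lost on leaving out any 1 array but replicates 1 and 4 of WT day 3, with adjusted p from 0.00111 to 0.140 over the 12 arrays.

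Type VI collagen forms beaded filaments around cells from Col6a1, Col6a2 and a longer partner chain, usually Col6a3. Col6a3 was at 4.37, 4.64 and 5.12 in WT before challenge and at 6.57, 6.40 and 5.75 at day 3. In labelled smSocs3-KO, the signal was 4.91, 5.05 and 4.85 before challenge and at 6.11, 5.45 and 4.60 at day 3. The WT groups were apart, and replicate 5 of labelled smSocs3-KO day 3 fell below all 3 arrays before challenge. The response was 1.53 ± 0.36 in WT (2.89-fold, adjusted p = 0.0409) and 0.45 ± 0.36 in labelled smSocs3-KO (adjusted p = 0.454), and the difference between these was -1.08 ± 0.50 (interaction, adjusted p = 0.932). Col6a1 and Col6a2 had responses of 0.07 to 0.29 in both genotypes, none called. Col6a6, an alternative partner chain, was at -3.33, -3.0 and -2.75 in WT before challenge and at -4.73, -5.25 and -3.32 at day 3, and at -2.56, -3.09 and -3.03 and then -3.15, -2.87 and -3.97 in labelled smSocs3-KO. WT replicates 1 and 3 at day 3, the 2 lowest, were not well above background. It showed -1.41 ± 0.45 in WT (adjusted p = 0.0825) and -0.44 ± 0.45 in labelled smSocs3-KO (adjusted p = 0.557).

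Col23a1, a transmembrane collagen, was at -0.99, -1.14 and -0.85 in WT before challenge and at -1.44, -1.65 and -1.56 at day 3. With the smSocs3-KO label it was at -1.42, -1.0 and -1.23 before challenge and at -1.70, -1.39 and -1.95 at day 3. It was lower at day 3 on every WT array, and the labelled smSocs3-KO groups overlapped. Its mean response was -0.51 ± 0.13 (0.702-fold, adjusted p = 0.0206), the only negative collagen response called in that contrast.

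The remaining chains of this class moved less than their error allowed to be called. The fibril-associated chains Col14a1, Col16a1, Col9a2, Col20a1 and Col22a1 had responses between -0.83 and 0.57 in the 2 genotypes. Col22a1 was at -2.03, -2.60 and -1.46 in WT before challenge and at -3.18, -3.20 and -1.42 at day 3, and at -1.39, -1.39 and -1.58 and then -2.41, -1.31 and -3.12 in labelled smSocs3-KO, with both pairs overlapping. Col19a1, of the same group, was well above background on 4 arrays, all of them before challenge. It read -3.33, -5.08 and -4.41 in WT before challenge and -4.81, -6.16 and -4.45 at day 3, and -3.45, -3.54 and -4.61 and then -4.92, -4.74 and -6.92 in labelled smSocs3-KO. The labelled smSocs3-KO groups were apart and the WT groups overlapped. Neither difference was called (adjusted p = 0.424 in WT and 0.167 in labelled smSocs3-KO). By the bound it was at least 1.91-fold lower at day 3 in labelled smSocs3-KO (means -3.87 before challenge and -5.53 at day 3), and in WT the bound was 1.0-fold, so that no fold can be given there. Col7a1, of the anchoring fibrils of skin, showed 0.12 and 0.26, and the transmembrane chain Col25a1 showed -0.77 and 0.02.

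**Figure D3:**
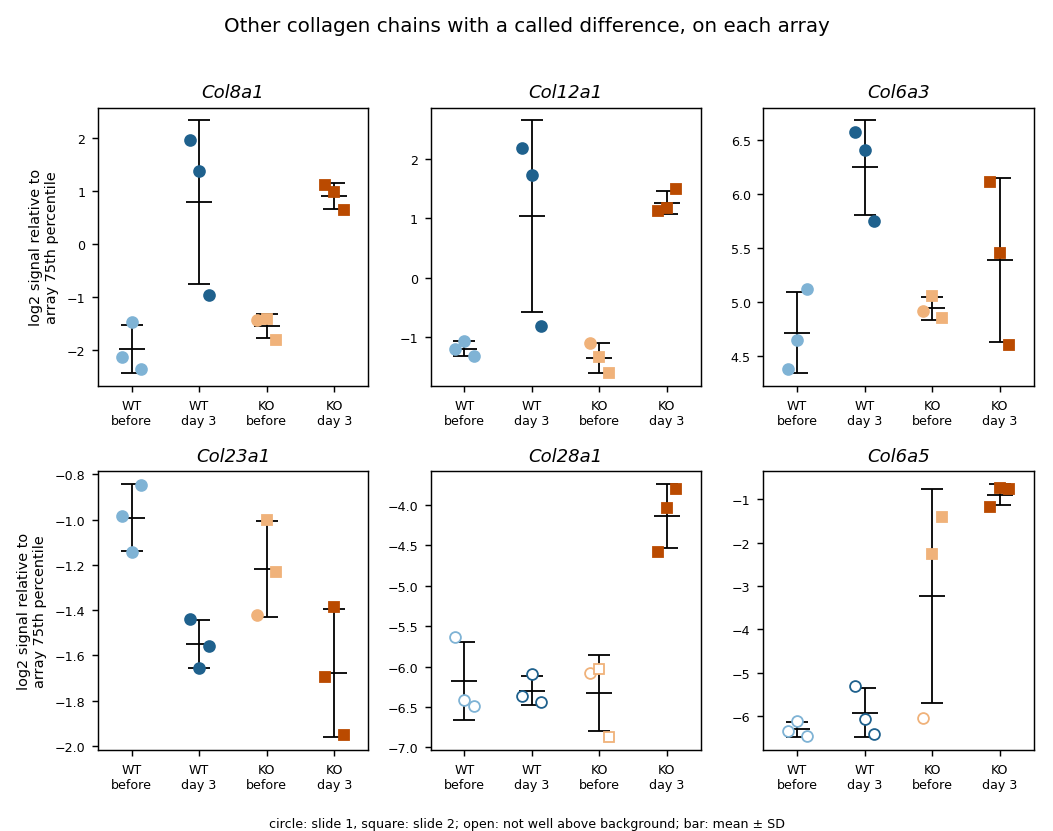
Signals of 6 other collagen chains on each array, drawn as for the fibrillar chains. Col8a1 and Col12a1 are higher at day 3 in both genotypes with replicate 4 of WT day 3 low (-0.96 and -0.81), Col28a1 is well above background on the 3 labelled smSocs3-KO arrays at day 3, and Col6a5 on the 5 arrays of slide 2.

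No type IV chain was called in WT or in labelled smSocs3-KO alone. Type IV trimers are built of Col4a1 and Col4a2 in nearly all basement membranes, and of Col4a3, Col4a4, Col4a5 and Col4a6 in specialised ones, Col4a5 and Col4a6 also in smooth muscle. The genes lie in head-to-head pairs: in RefSeq the starts of Col4a1 and Col4a2 are 21 bases apart and those of Col4a6 and Col4a5 are 1343 bases apart, each pair on opposite strands. The class median was 0.01 in WT and -0.46 in labelled smSocs3-KO.

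Col4a1 was at 4.86, 4.92 and 4.99 in WT before challenge and at 5.41, 5.59 and 5.78 at day 3. Labelled smSocs3-KO arrays read 5.19, 4.89 and 5.15 before challenge and at 5.29, 4.76 and 5.11 at day 3. The WT groups were apart and the labelled smSocs3-KO groups overlapped. The response was 0.67 ± 0.18 in WT (1.59-fold, adjusted p = 0.0535, or 0.0398 with slide as a block) and -0.02 ± 0.18 in labelled smSocs3-KO, and their difference was -0.70 ± 0.25 (interaction, adjusted p = 0.897). One of the 10 spots of the Col4a1 probe was marked as an outlier on replicate 1 of WT day 3 and was left out of that array's mean.

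Its neighbour Col4a2 was at 4.41 to 4.46 in WT before challenge and 4.73 to 4.88 at day 3, and at 4.38 to 4.55 and 4.63 to 4.85 in labelled smSocs3-KO. Both pairs of groups were apart. The Col4a2 response was 0.36 ± 0.13 in WT and 0.23 ± 0.13 in labelled smSocs3-KO, called as their mean (0.29 ± 0.09, adjusted p = 0.046). Of the other pair, Col4a5 showed 0.21 ± 0.34 and Col4a6 -0.47 ± 0.36 in WT, neither called.

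Col4a6 was at 5.13, 5.10 and 5.17 in WT before challenge and at 4.52, 4.14 and 5.34 at day 3. On labelled smSocs3-KO arrays it read 5.09, 5.02 and 4.95 before challenge and at 4.54, 4.58 and 3.25 at day 3. Its 2 low WT arrays at day 3 were replicates 1 and 3, and the labelled smSocs3-KO groups were apart. The response there was -0.90 ± 0.36 (adjusted p = 0.173). Replicate 5 of labelled smSocs3-KO day 3 was the lowest array of all 12 for Col4a3 (-3.21), Col4a4 (-0.72), Col4a5 (2.64) and Col4a6. Col4a3 read -0.73, -0.49 and -0.86 in WT before challenge and -1.22, -0.88 and -0.52 at day 3, and -0.97, -0.81 and -1.48 in labelled smSocs3-KO before challenge. The other arrays of its day 3 group were at -1.11 and -1.1. Col4a4 read 1.55, 1.80 and 1.39 and then 0.94, 1.43 and 1.26 in WT, and 1.53, 0.97 and 0.83 in labelled smSocs3-KO before challenge, with the other day 3 arrays at 1.17 and 0.71. The Col4a3 and Col4a4 groups overlapped in both genotypes.

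Col15a1 and Col18a1 encode the multiplexins, collagens of the basement membrane zone with interrupted helices, whose C-terminal pieces include endostatin. Col15a1 was at 1.53, 1.12 and 0.74 in WT before challenge and at 1.70, 2.56 and 1.12 at day 3. The labelled smSocs3-KO arrays gave 2.25, 0.05 and 0.63 before challenge and at 0.90, -1.42 and -1.78 at day 3. All 3 labelled smSocs3-KO arrays at day 3 lay below the 3 WT arrays at day 3. That difference was -2.56 ± 0.72 (0.170-fold), which was not called at the gene level (adjusted p = 0.127).

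Col15a1 had 2 further measurable probes, at chr4:47325261-47325320 and chr4:47325273-47325332 on mm9, which share 48 of their 60 bases. On the first of these, WT read -0.69, -0.98 and -0.53 at day 3 and labelled smSocs3-KO -2.16, -3.41 and -4.31. On the second, WT read 0.04, -0.35 and 0.25 and labelled smSocs3-KO -1.36, -2.77 and -3.40. Their differences were -2.56 and -2.49, and both passed when all 32283 probes were tested singly (adjusted p = 0.0304 and 0.0265), where 0.149% of probes were lower and called. Before challenge the difference of the gene was -0.15 ± 0.72, with a 95% interval from -1.74 to 1.44. Its labelled smSocs3-KO arrays then lay on both sides of the WT mean of 1.13. The slide 1 array read 2.25 and the slide 2 arrays read 0.05 and 0.63, already below that mean. With slide as a block, a fit whose slide effect rests on that slide 1 array, the day 3 difference of Col15a1 was -0.64 (adjusted p = 0.793).

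Col18a1 was at 7.29, 7.16 and 7.42 in WT before challenge and at 7.75, 7.70 and 7.78 at day 3. In labelled smSocs3-KO, the signal was 7.30, 7.03 and 7.19 before challenge and at 7.09, 6.65 and 5.62 at day 3. Every WT array at day 3 was above the WT arrays before challenge, and the 3 labelled smSocs3-KO arrays at day 3 were all below the WT range of day 3. The genotype difference at day 3 was -1.29 ± 0.30 (0.408-fold, adjusted p = 0.0692), and -1.10 with slide as a block (adjusted p = 0.351). A second Col18a1 probe gave -0.66 (adjusted p = 0.261). In WT the Col18a1 response was 0.46 ± 0.30 (0.04 on the second probe). The 2 genotypes' responses differed by -1.17 ± 0.42 (interaction, adjusted p = 0.897).

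**Figure D4:**
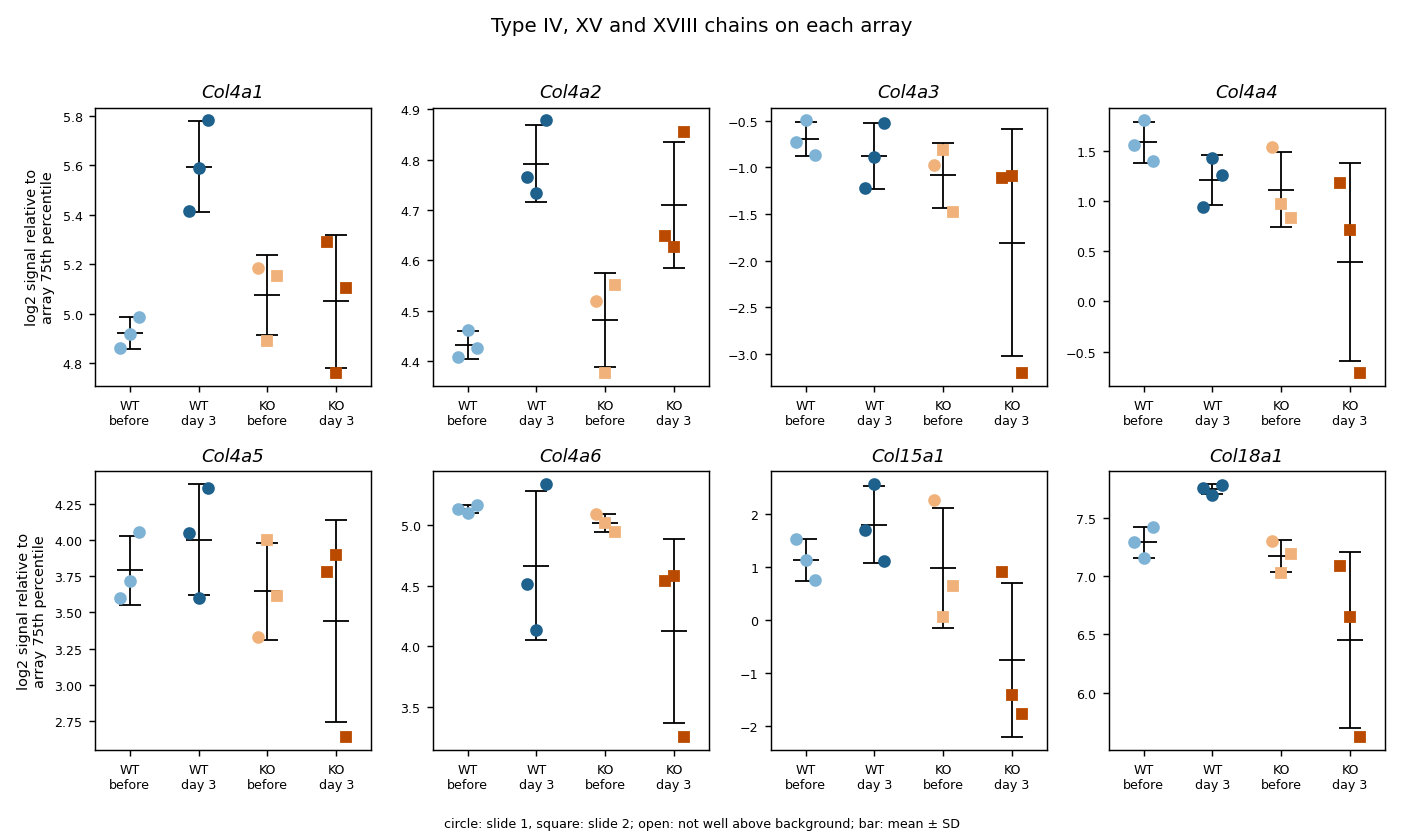
Signals of the 6 type IV chains and the 2 multiplexins on each array, drawn as for the fibrillar chains. Col4a1 rises from 4.86-4.99 to 5.41-5.78 in WT, Col18a1 lies at 7.70-7.78 in WT and 5.62-7.09 in labelled smSocs3-KO at day 3, and replicate 5 of labelled smSocs3-KO day 3 is the lowest point for Col4a3, Col4a4, Col4a5, Col4a6, Col15a1 and Col18a1.

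Before challenge, no collagen gene was called between genotypes (0, 1 at an unadjusted p under 0.05), and 0.0264% of all genes were called higher and 0% lower. The group ranges were apart for 2 collagen genes higher and 3 lower in labelled smSocs3-KO (6.48% and 4.6% of all genes). The medians of the fibrillar, type IV and other chains were -0.10, -0.13 and 0.03, and the 95% interval of the Col3a1 difference ran from -0.30 to 0.51. Col25a1 had the most negative difference of the 35 genes (-1.06 ± 0.49), with WT at -2.54, -3.56 and -2.72 and labelled smSocs3-KO at -3.0, -4.32 and -4.69, and Col22a1 showed 0.57 ± 0.54. The gene past the unadjusted threshold was Col6a5, well above background on 2 labelled smSocs3-KO arrays and on 0 WT arrays before challenge, and by the bound at least 2.15-fold higher (means -3.23 and -6.31, adjusted p = 0.738). It was called without replicate 1 of labelled smSocs3-KO (adjusted p = 0.00410, at least 5.70-fold), but then all labelled smSocs3-KO arrays are on slide 2, and genotype and slide cannot be told apart.

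At day 3, 2 collagen genes were called higher in labelled smSocs3-KO than in WT, Col6a5 and Col28a1, where 0.958% of all genes were. Both probes passed the brightness filter only through the labelled smSocs3-KO day 3 group, in which they were then called higher. The filter thus favoured that direction, and these 2 calls are not independent of it. No collagen gene was called lower (0; 5 at an unadjusted p under 0.05), against 0.154% of all genes. The ranges were apart for 3 higher and 5 lower collagen genes (7.86% and 12.7% of all genes), the lower ones being Col1a2, Col4a1, Col8a2, Col15a1 and Col18a1. All 6 type IV chains and 6 of 9 fibrillar chains had a negative difference, with class medians of -0.55 and -0.14, where the median of all genes was -0.08. The other chains had a median of 0.10. Among the negative fibrillar differences were Col1a1 at -0.46 ± 0.24, Col1a2 at -0.41 ± 0.18, Col3a1 at -0.14 ± 0.18 and Col5a1 at -0.36 ± 0.19. Col27a1 (0.53), Col11a2 (0.16) and Col5a3 (0.12) had positive differences. No fibrillar chain was called, and the 95% interval of Col1a2 ran from -0.79 to -0.02 (adjusted p = 0.29). Over the alternatives run, the sign was not stable for Col1a1 (-0.66 to 0.28) or Col3a1 (-0.26 to 0.32), whereas Col5a1 stayed negative (-0.66 to -0.20).

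Col28a1 encodes a collagen with von Willebrand factor A domains like those of type VI, known from the basement membrane around peripheral glia. It was well above background only on the 3 labelled smSocs3-KO arrays at day 3, at -4.58, -4.03 and -3.80. The other 9 arrays read -6.88 to -5.63, among them the 2 slide 2 arrays before challenge (-6.03 and -6.88). By the bound Col28a1 was at least 1.28-fold higher at day 3 than before challenge in labelled smSocs3-KO (means -4.14 and -6.33, adjusted p = 0.0121) and at least 1.1-fold higher than in WT at day 3 (means -4.14 and -6.30, adjusted p = 0.0143). Within slide 2 the fitted response was 2.32 (adjusted p = 0.0718). With slide as a block the Col28a1 difference at day 3 was not called (fitted 2.53, adjusted p = 0.221). Without replicate 5 of labelled smSocs3-KO day 3 neither call was kept (adjusted p = 0.0547 for the response and 0.0648 at day 3), and no bound above 1 could be given at day 3. Markers of Schwann cells, 4 of 5 measured, averaged 0.14 to 0.26 on the labelled smSocs3-KO arrays at day 3 and -0.32 to -0.17 on the WT arrays at day 3, relative to WT before challenge. On the labelled smSocs3-KO arrays before challenge these markers averaged 0.04 to 0.15. Their part in the Col28a1 result was not tested.

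Col6a5 encodes another alternative partner chain of type VI collagen. It was at -1.18, -0.73 and -0.77 in labelled smSocs3-KO at day 3 and at -5.31, -6.06 and -6.41 in WT at day 3. Before challenge it was at -2.26 and -1.40 on the 2 labelled smSocs3-KO arrays of slide 2 and at -6.04 on that of slide 1, and the WT arrays read -6.46 to -6.11. It was thus well above background on all 5 arrays of slide 2 and on 0 of the 7 of slide 1. By the bound Col6a5 was at least 10.4-fold higher in labelled smSocs3-KO at day 3 (means -0.90 and -5.93, adjusted p = 0.0307). With slide as a block this difference was not called (fitted 0.82, adjusted p = 0.467), the adjusted p ran from 0.000162 to 0.112 over left-out arrays, and for Col6a5 genotype and slide cannot be told apart.

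**Figure D5:**
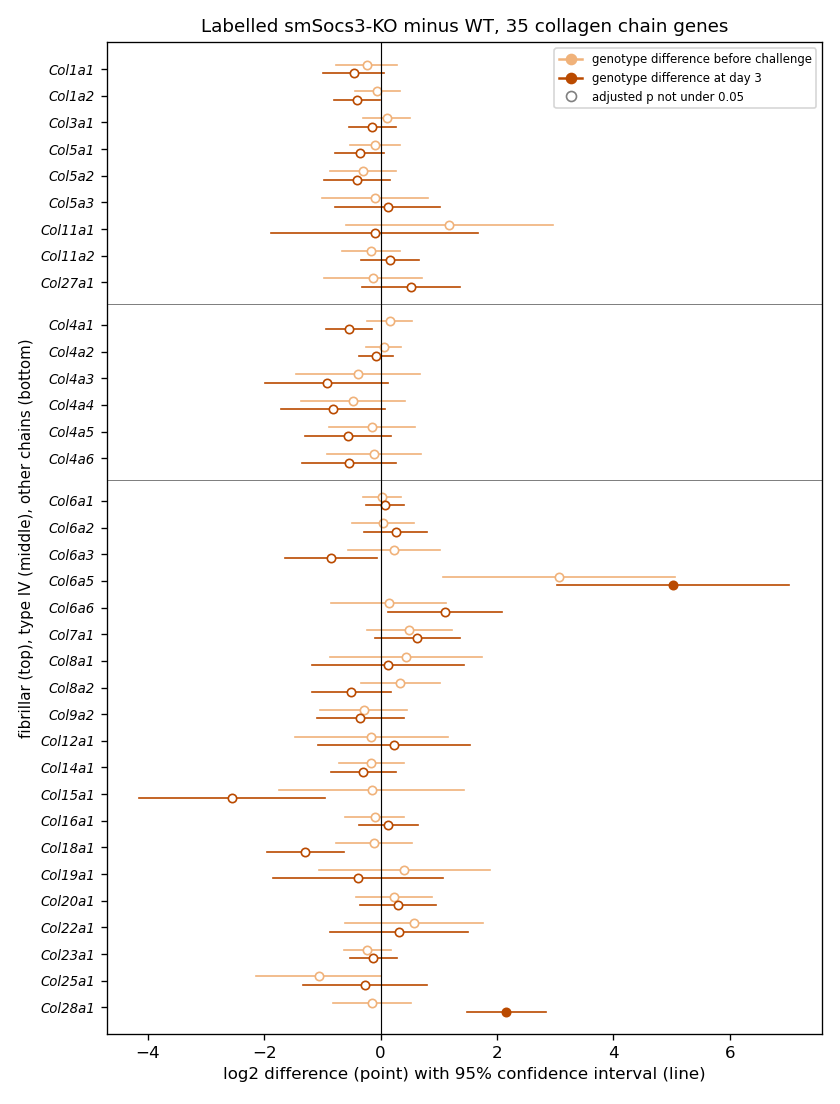
Differences between labelled smSocs3-KO and WT for the 35 measurable collagen genes. The x axis is the log2 difference, points are estimates (filled where the adjusted p is under 0.05), lines are 95% confidence intervals, pale is before challenge and brown is day 3. The filled points are Col6a5 and Col28a1 at day 3, whose WT arrays are not well above background so that the plotted size is not a measured fold, and all 6 type IV chains lie below 0 at day 3.

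Under the study's threshold (unadjusted p under 0.01 and over 4-fold, applied to limma's p), 3 collagen genes were higher after challenge in WT (Col8a1, Col11a1 and Col12a1) and 3 in labelled smSocs3-KO (Col8a1, Col12a1 and Col28a1), against 1.11% and 1.44% of all genes. These counts use fitted folds, and Col11a1 and Col28a1 passed the brightness filter only through the labelled smSocs3-KO day 3 group. The bounds of Col11a1 in WT (at least 2.92-fold) and of Col28a1 in labelled smSocs3-KO (at least 1.28-fold) do not reach 4-fold. At day 3, Col6a5 and Col28a1 were higher and Col15a1 was lower in labelled smSocs3-KO, against 0.984% and 0.127% of all genes, and the bound of Col28a1 there (at least 1.1-fold) does not reach 4-fold either.

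Genes that act on collagen chains were read from lists. Of all genes, 3.59% rose and 1.09% fell in WT, and 1.71% and 0.734% in labelled smSocs3-KO. Leaving out any 1 WT array but replicate 4 of day 3 left at most 2 of all genes higher in WT. Most of the WT calls below therefore depended on single arrays. Of 18 measurable genes for chain modification and folding, 3 rose in WT and none fell (0): the lysyl hydroxylases Plod1 (0.81 ± 0.20, adjusted p = 0.0468) and Plod3 (0.84 ± 0.19, adjusted p = 0.0390), and Ppib, a prolyl isomerase (0.84 ± 0.17, adjusted p = 0.0333). The list's median was 0.69 in WT and 0.18 in labelled smSocs3-KO, where no member was called (0). Of 12 genes for propeptide trimming and crosslinking, 3 rose in WT: Pcolce, which speeds the trimming of the C-terminal propeptide (0.66 ± 0.15), and the lysyl oxidases Lox (1.49 ± 0.33) and Loxl2 (1.36 ± 0.23). Loxl2 was the 1 member that rose in labelled smSocs3-KO (1.21 ± 0.23, adjusted p = 0.0324). Lysyl oxidase activity is what BAPN blocks.

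None of 9 collagen receptors and none of 6 matrix-degrading enzymes was called in either genotype (0), with medians of 0.02 and 0.36 in WT and -0.44 and 0.28 in labelled smSocs3-KO. Of 9 upstream ligands, Il6 rose in WT (7.24 ± 1.55, adjusted p = 0.0358), where 3.59% of all genes did. The list median was 0.50 in WT and 0.22 in labelled smSocs3-KO. No gene of these 5 lists was called between genotypes at either time (0).

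Markers of cell types are given as the mean of each list on an array relative to WT before challenge. The fibroblast list (10 genes) was at -0.10 to 0.02 in WT and 0.61 to 1.07 in labelled smSocs3-KO at day 3, and at 0.02 to 0.31 in labelled smSocs3-KO before challenge. Its members Dpt and Pi16 were called higher in labelled smSocs3-KO at day 3 (1.99 ± 0.33 and 1.64 ± 0.33), and Gsn fell in WT after challenge (-1.05 ± 0.25). The macrophage list (10 genes) was at 1.58, 1.09 and 0.10 in WT and 1.53 to 1.65 in labelled smSocs3-KO at day 3, 0.10 being replicate 4. The smooth muscle list (10 genes), which checks the labelled tissue, was measurable in full, at -0.73, -0.75 and 0.16 in WT and -0.84 to -0.39 in labelled smSocs3-KO at day 3.

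The proliferation list was at 1.94 to 3.79 in labelled smSocs3-KO at day 3. The mesothelial list (7 genes) was at -1.96 to 0.28 in WT and 1.45 to 2.03 in labelled smSocs3-KO at day 3. Before challenge the mesothelial list was already at 1.36 to 2.78 in labelled smSocs3-KO, and at -1.62 to 0.90 in WT. The adipocyte list (6 of 7 genes) ranged from -1.64 to 1.55 within WT day 3. Endothelial markers (10 genes) were at 0.05 to 0.35 and 0.23 to 0.53 at day 3, lymphocyte markers (6 of 8) at -0.86 to -0.49 and -1.08 to 0.40, and skeletal muscle markers (3 of 6) at -0.77 to 0.62 and -0.58 to 0.49. Replicate 4 of WT day 3 was thus low for macrophage and proliferation markers and for Col8a1, Col11a1 and Col12a1 together. The part of these cell types in the collagen values was not tested.

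The 8 collagen genes without a measurable probe were Col2a1 and Col24a1 among the fibrillar chains, and Col6a4, Col9a1, Col9a3, Col10a1, Col13a1 and Col17a1 among the others. Of these, 5 were well above background on no array, and Col2a1, Col9a1 and Col24a1 were so on 1 to 4 arrays. Col2a1, Col9a1, Col9a3 and Col10a1 are chains of cartilage. Of the 35 measurable genes, 28 were well above background on all 12 arrays. In 11 genes with more than 1 measurable probe, the probes shared the sign of the response in 8 genes in WT and 10 in labelled smSocs3-KO, and at day 3 the sign of the genotype difference in 10.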

How the data were processed

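Aortic RNA was measured on 12 one-colour Agilent 8x60K arrays. The authors deposited scanner output whose processed signal is an intensity on a linear scale, made by Feature Extraction (10.7.1.1 in the file headers, 9.5.1.1 in the submitters' processing notes). A second deposited table held quantile normalized intensity for the same arrays. Groups came from the sample labels. From the deposited intensity, log2 was taken, controls and spots marked as outliers were left out, spots of a probe were averaged, and the array's 75th percentile was subtracted. Probes well above background (13 times the background's SD) on each array of 1 group or more were kept (32283 of 55681), and each gene was read from its brightest kept probe. The fit had 4 group means in limma 3.58.1 (R 4.3.3), and adjusted p-values cover all 22761 genes. Spots well above background made up 55.4% to 61.2% of an array, no probe was saturated, and having 3 arrays in each group limits the precision.

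The genes named were Col1a1, Col3a1 and Col15a1, every collagen gene called in a pairwise comparison and the 3 highest and 3 lowest differences in each. The members, lists and motifs were chosen with earlier results of these data known. Pathway lists covered chain modification and folding, trimming and crosslinking, receptors, degradation and upstream ligands, and marker lists covered fibroblasts, smooth muscle, endothelium, macrophages, lymphocytes, adipocytes, mesothelium, skeletal muscle, Schwann cells and proliferation. Probe positions are on mm9, as in the array files, and promoters on GRCm38.p6. The fit was tested on simulated data. Alternatives were other background corrections, scalings, filters and probe rules, other moderation, fits of 2 groups only, slide or replicate number as a block, and leaving out each array.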

Additional observations from a re-analysis of the deposited data

Results flagged for a closer look

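Col18a1 was singled out because every WT array at day 3 lay above the WT mean before challenge (by 0.41 to 0.49) and every labelled smSocs3-KO array at day 3 lay below its own group's mean before challenge (by -1.55 to -0.08). The difference between the 2 responses was -1.17 ± 0.42 (interaction), with an unadjusted p of 0.018 in limma and an adjusted p of 0.897. Because the gene was picked from these same values, the unadjusted p is not a test of the pattern. The second measurable Col18a1 probe gave responses of 0.04 in WT and -0.55 in labelled smSocs3-KO. Its interaction was -0.59 (limma adjusted p = 0.996 over single probes). Groups of 3 arrays were not tested for single outlying arrays.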

How the results depend on the processing

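The interaction gave 0 collagen calls under all alternatives run, including each left-out array. For the other counts, the 5 calls of the WT response became 3 with normexp and quantile normalization, 2 with quantile normalization or the authors' table, and 0 with no filter on dim probes, with only the 2 groups in the fit or within slide 1. They became 6 with only probes well above background on all 12 arrays and 7 with array medians subtracted, with trend and robust moderation or with slide as a block, and ranged from 0 to 9 over left-out arrays. Calls of all genes in WT, 816 higher and 249 lower in the main fit, were 5 and 5 with no filter. They were 0 and 0 with only the 2 groups or within slide 1, and 1613 and 755 with slide as a block. With slide as a block, all genes gave 39 and 13 calls in labelled smSocs3-KO, and 0 and 0 between genotypes at day 3. Changes in the collagen counts are therefore to be read beside those of all genes. The 2 calls of the labelled smSocs3-KO response became 1 with quantile normalization, the authors' table, no filter or slide as a block, 3 with medians subtracted or trend and robust moderation, and 4 with only the 2 groups, and ranged from 0 to 5. The 2 calls at day 3 between genotypes became 1 with no filter and 0 with slide as a block or with only probes well above background on all 12 arrays, a filter that leaves Col6a5 and Col28a1 untested. They became 3 with trend and robust moderation or the mean of all probes of a gene, and ranged from 0 to 3 over left-out arrays. The 0 calls before challenge ranged from 0 to 1, and the 11 calls of the mean response from 6 to 15. With slide as a block and replicate 4 of WT day 3 left out, chosen after seeing the data, the calls were 9 in WT, 6 in labelled smSocs3-KO and 0 at day 3.

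The collagen median of the WT response (0.21) was 0.065 with normexp, 0.078 with quantile normalization, 0.080 with the authors' table and 0.41 with array medians subtracted. That of labelled smSocs3-KO (0.10) was 0.31 with medians subtracted and -0.033 to 0.18 over left-out arrays, and that of the mean response (0.18) was 0.045 with normexp and 0.38 with medians subtracted. At day 3 the median (-0.14) turned positive with medians subtracted (0.019) and with slide as a block (0.094), was -0.27 with no filter and -0.33 with probes well above background on all arrays, and ran from -0.36 to -0.047 over left-out arrays. Before challenge (-0.10) it was 0.049 with medians subtracted and 0.089 with slide as a block, within slide 1 and with slide as a block without replicate 4 of WT day 3. The interaction's median (-0.14) ran from -0.24 to 0.0063. Subtracting array medians raised the median of all genes from -0.02 to 0.17 in WT and from -0.06 to 0.15 in labelled smSocs3-KO. The cause of these changes was not tested.

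Same-numbered arrays were not paired: their deviations from the group means correlated from -0.40 to 0.46 over 11 pairs, 4 of them over 0.1. With the replicate block the collagen calls were 0 in WT, 0 in labelled smSocs3-KO, 0 at day 3 and 7 for the mean response, and the labelled smSocs3-KO median was 0.25.

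The 9 calls of single named genes were lost in 105 of 219 alternative values, with 0 reversed: for Col3a1 in WT in 16 of 25, for Col6a3 in WT in 15 of 25, for Col11a1 in WT in 15 of 24, for Col5a1 in WT in 14 of 25, for Col8a1 in WT in 11 of 25, for Col12a1 in labelled smSocs3-KO in 15 of 25, for Col28a1 in labelled smSocs3-KO in 3 of 24, and at day 3 for Col6a5 in 12 of 23 and for Col28a1 in 4 of 23. Of 1947 alternative values of the 81 results that were not called, 33 gained a call and 88 changed sign. The limits are 3 arrays per group, the shared slide of genotype at day 3, the thin margin of the adjusted p-values in WT, and dim probes, whose fold changes are bounds.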
